A study of Mus musculus with 8 samples.

Results

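Complement components and regulators were examined in 8 Affymetrix expression arrays of total RNA from mouse eyes. The members were chosen by gene symbol, as every probe set that the platform annotation assigns to C1qa, C1qb, C1qc, C2, C3, Cfb or Serping1. This gave 8 probe sets for 6 of the 7 genes, of 22626 probe sets that were not controls and 12393 genes named on the array: 3 for C1qb and 1 each for C1qa, C1qc, C2, Cfb and Serping1. No probe set carried C3 as its symbol in the annotation used here, so C3 was not analysed here. The 4 groups were KPAW eyes at 1 month, wild-type eyes at 1 month, KPAW eyes at 5 days and wild-type eyes at 5 days of age. Each group had 2 arrays, called I and II. KPAW is not expanded in the labels, which name no allele, promoter or agent. The 5-day wild type is labelled C57Bl6, and no strain is given for the other groups. Nothing in the labels says that the arrays of a group came from separate animals, so each p-value measures only the spread between these arrays. Sex markers, given below, differed between the KPAW arrays at 5 days, so those came from different animals. In the other groups the spread may be technical.

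Complement is a cascade of secreted proteins that marks surfaces for removal. C1q, built from the products of C1qa, C1qb and C1qc, is the recognition molecule of the classical pathway and is made mostly by macrophages and microglia. C2 is the classical-pathway protease that becomes part of the convertase of C3, the central component, and factor B (Cfb) plays the matching part in the alternative pathway. Serping1 encodes C1 inhibitor, a protease inhibitor that restrains the first steps of the classical and lectin pathways. In the nervous system C1q and C3 are known for tagging synapses and debris, and complement in the eye is known for its link to inflammation and retinal ageing.

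The C1qa, C1qb and C1qc genes lie next to each other on chromosome 4, with no other gene of the RefSeq annotation (GRCm38) between them. The RefSeq promoter table held an entry for C1qb, C1qc and C3 among the 7 genes. The 250 bases before the annotated start are shown for the 2 C1q genes, because the genes are neighbours and their probe sets are compared throughout. The capitals mark the match to AGGAAGT, the core recognised by the myeloid factor PU.1, which reads in reverse complement on the strand printed.
C1qb, GRCm38 chr4:136886201-136886450, minus strand: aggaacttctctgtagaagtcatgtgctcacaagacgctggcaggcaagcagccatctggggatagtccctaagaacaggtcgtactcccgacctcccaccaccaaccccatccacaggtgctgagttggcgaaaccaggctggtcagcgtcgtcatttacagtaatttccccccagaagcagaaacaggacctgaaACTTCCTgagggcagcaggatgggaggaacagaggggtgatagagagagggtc
C1qc, GRCm38 chr4:136892915-136893164, minus strand: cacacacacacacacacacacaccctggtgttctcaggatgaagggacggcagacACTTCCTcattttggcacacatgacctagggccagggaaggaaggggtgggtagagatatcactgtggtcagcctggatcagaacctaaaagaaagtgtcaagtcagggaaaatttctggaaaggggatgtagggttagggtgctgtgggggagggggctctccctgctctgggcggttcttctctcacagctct
The match lies 53 to 47 bases before the start in C1qb and 195 to 189 bases before it in C1qc. Searched on both strands, 7.69% of the 32851 promoters of the table hold these letters in the same window. TTCNNNGAA, the interferon gamma activated site, was found in neither promoter and in 7.02% of all promoters. The interferon-stimulated response element was likewise found in neither and in 2.98% of all. The NF-kB site was found in C1qc but not in C1qb, and in 2.70% of all promoters. A match of letters describes the window and is no evidence of binding.

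Signals are given scaled, each array to a common trimmed mean. The arrays differed in ways that touch the results below. KPAW I at 1 month was the outermost array on the second principal component, at 49.4, with the remaining 7 from -23.1 to 13.9. There the 7 rod photoreceptor markers summed to a scaled signal of 0.760, against 30.9 for the other KPAW array and 27.6 and 34.5 for wild type of that age. All 5 lens markers and all 4 pigment epithelium markers were above the lowest listed value in all 8 arrays, which fits the tissue named in the labels. Xist and the Y-linked gene Eif2s3y marked KPAW II and both wild-type arrays at 5 days as female and the other 5 arrays as male, with Xist at 2.95 to 3.64 in the female arrays and at 0.0523 to 0.0861 in the male ones. Age and sex markers thus cannot be told apart in wild type.

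**Figure D1:**
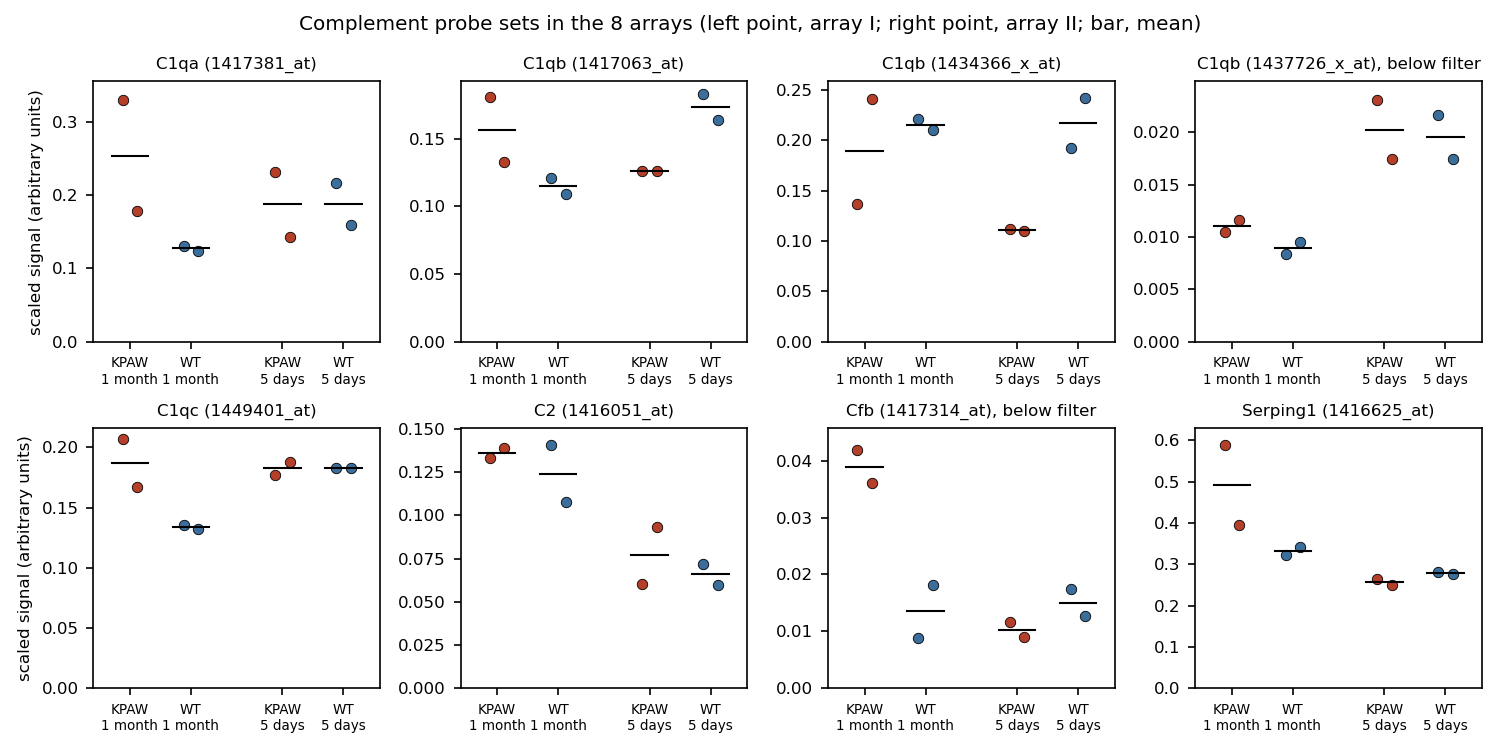
Scaled signal (vertical axis, arbitrary units, starting at 0) of the 8 complement probe sets in KPAW and wild-type (WT) eyes at 1 month and 5 days; each point is 1 array and each bar the mean of 2. At 1 month both KPAW arrays lie above both wild-type arrays for C1qa, C1qb (1417063_at), C1qc, Cfb and Serping1, and KPAW I is the higher of the KPAW arrays for each of them. For the faintest C1qb probe set (1437726_x_at) the deposited values of the groups overlap at 1 month, at or near the lowest listed value, and the order drawn comes from the scaling. The deposited values of C1qb (1417063_at), C1qc and Serping1 overlap at 1 month as well, above that lowest value.

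Which complement transcripts differ in the young adult eye was asked by setting KPAW beside wild-type arrays at 1 month. C1qa, C1qc, Serping1 and the C1qb probe set 1417063_at had higher scaled signals in both KPAW arrays than in both wild-type arrays. Their means differed by 1.36-fold to 2-fold, and the faint Cfb probe set was higher in both KPAW arrays too. In the values as deposited, C1qa and Cfb kept this order. C1qc, Serping1 and 1417063_at overlapped between the groups there, so their separation depends on the scaling. C2 and a second C1qb probe set overlapped between the groups. No complement probe set passed the test of limma, which is an adjusted p under 0.05 over the 15838 probe sets above the filter on low signals. Among all probe sets tested, 0.0253% passed. Of the 6 complement probe sets tested, 3 had an unadjusted p under 0.05, against 6.95% of all. In 4 of the 6 the KPAW arrays lay above the wild-type arrays in scaled signal, against 16.9% of all probe sets tested. The median log2 fold change over the 6 was 0.40, and over all probe sets tested it was -0.01. These 6 are probe sets of few genes, which need not vary independently.

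C1qa, the A chain of C1q, had scaled signals of 0.330 and 0.178 in the KPAW arrays I and II, against 0.131 and 0.124 in the wild-type arrays. The KPAW arrays were both higher, and they also lay far apart from each other. The mean was 0.254 ± 0.108 in KPAW and 0.127 ± 0.00471 in wild type (SD, n = 2 each), and the log2 fold change of C1qa was 0.83 (SE 0.31, adjusted p = 0.675). C1qc, the C chain, read 0.207 and 0.167 in KPAW, against 0.136 and 0.132 in wild type, with a log2 difference of 0.42 (SE 0.15, adjusted p = 0.675). After scaling its groups did not overlap, and its wild-type arrays were close together.

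The B chain was measured by 3 probe sets that disagreed. With 1417063_at, C1qb read 0.181 and 0.132 in KPAW, against 0.121 and 0.109 in wild type (log2 fold change 0.37, SE 0.17, adjusted p = 0.675). Its order of arrays was that of C1qa and C1qc. With 1434366_x_at, C1qb read 0.137 and 0.241 in KPAW, against 0.221 and 0.211 in wild type (log2 fold change -0.22, SE 0.24, adjusted p = 0.808). Here the KPAW arrays lay on either side of wild type, with KPAW I the lowest of the 4. The name ending _x_at marks a probe set whose probes can match other transcripts too. The third, 1437726_x_at, was below the filter on low signals, with scaled signals from 0.00836 to 0.0231 over all 8 arrays and the lowest listed value in 2 of them.

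Serping1, which encodes C1 inhibitor, read 0.589 and 0.395 in KPAW at 1 month, against 0.323 and 0.343 in wild type. The mean was 0.492 ± 0.137 in KPAW and 0.333 ± 0.0141 in wild type (SD, n = 2 each). The log2 difference of Serping1 was 0.51 (SE 0.19, adjusted p = 0.675). Both KPAW arrays were higher after scaling, KPAW I by more. Cfb, the alternative-pathway protease, read 0.0418 and 0.0362 in KPAW, against 0.00890 and 0.0182 in wild type. The groups did not overlap, and the KPAW arrays were the highest 2 of all 8. The log2 difference of Cfb was 0.81, and its size depends on the pseudocount of 0.0211, which lies above both wild-type signals. Cfb lay below the filter and was not tested there; without a filter its adjusted p was 0.296. C2 read 0.133 and 0.139 in KPAW, against 0.141 and 0.108 in wild type, with a log2 difference of 0.12 (SE 0.21, adjusted p = 0.893), and its groups overlapped.

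Without KPAW I, the rod-poor array, the log2 differences from wild type at 1 month were 0.42 for C1qa, 0.18 for C1qb (1417063_at), 0.28 for C1qc, 0.23 for Serping1 and 0.74 for Cfb. Without KPAW II they were 1.24, 0.57, 0.56, 0.79 and 0.87 in the same order, and Serping1 alone of the complement probe sets tested passed then (adjusted p = 0.0346), with 562 of all probe sets. KPAW I thus carried the larger part of the C1q and Serping1 differences, while Cfb was nearly as high in KPAW II.

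**Figure D2:**
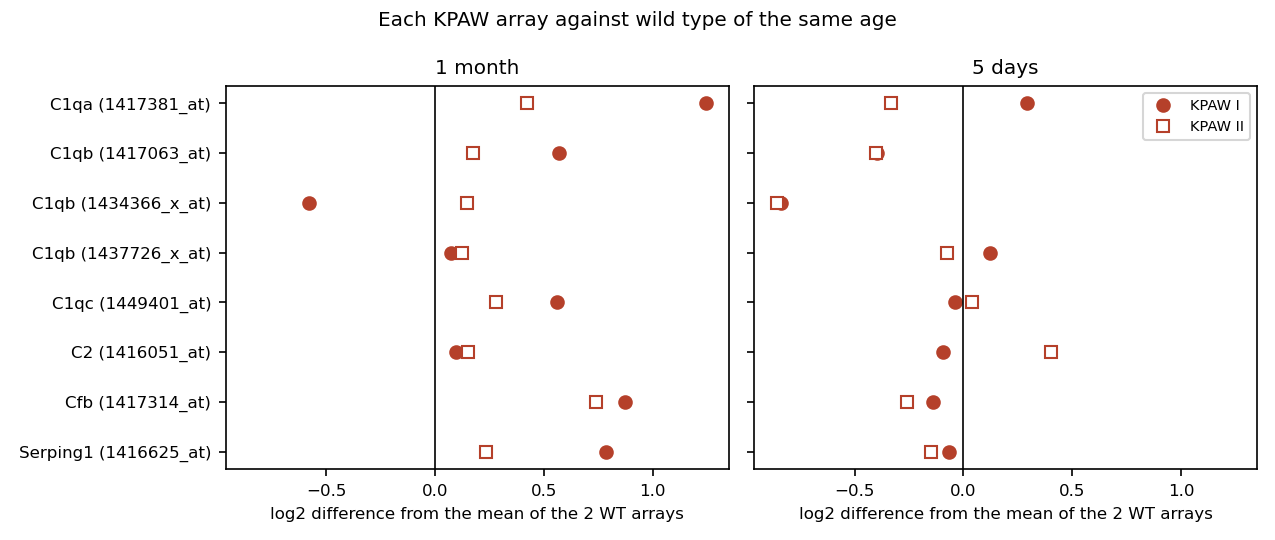
Log2 difference of each KPAW array from the mean of the 2 wild-type (WT) arrays of the same age (horizontal axis, log2 of scaled signal plus pseudocount), for the 8 complement probe sets, at 1 month and at 5 days. At 1 month C1qa, C1qb (1417063_at), C1qc, Cfb and Serping1 lie to the right of 0 in both arrays. By at most 0.15, C2 and the faintest C1qb probe set (1437726_x_at) do so too, the latter at or near the lowest listed value. At 5 days 2 C1qb probe sets, Cfb and Serping1 lie to the left of 0 in both. For Cfb at 5 days both KPAW arrays and wild type II held the lowest listed value.

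In bulk RNA, more cells of a type and more RNA per cell cannot be told apart, so markers of the cells that make C1q were read beside it. The macrophage and microglia list had 19 genes on the array. Its summed scaled signal at 1 month was 4.02 and 3.06 in KPAW, against 2.75 and 2.59 in wild type, the same order of groups as C1qa and C1qc. Of its 16 genes tested, 10 lay higher in both KPAW arrays than in both wild-type arrays, against 16.9% of all probe sets, and none passed the test. Their median log2 difference from wild type was 0.73 in KPAW I and 0.16 in KPAW II. Lyz2, the lysozyme of macrophages, read 0.473 and 0.453 in KPAW, against 0.247 and 0.219 in wild type. Tyrobp, a signalling adaptor of microglia, read 0.243 and 0.123 in KPAW, against 0.0926 and 0.0796 in wild type. Csf1r, the receptor that macrophages need for survival, read 0.620 and 0.408 in KPAW, against 0.390 and 0.376 in wild type. The microglial receptor P2ry12 read 0.0425 and 0.0363 in KPAW, against 0.0376 and 0.0360 in wild type, and overlapped. Lgmn and Cx3cr1 ran the opposite way. Lgmn, a lysosomal protease, read 0.809 and 0.850 in KPAW, against 0.888 and 0.918 in wild type. The microglial receptor Cx3cr1, below the filter, read 0.0158 and 0.0293 in KPAW, against 0.0449 and 0.0311 in wild type. Aif1, also below it, read 0.0283 and 0.00958 in KPAW, against 0.0292 and 0.0207 in wild type, and overlapped. Their part in the C1q difference was not tested.

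Other summed lists were also higher in both KPAW arrays, lens and pigment epithelium among them. Summed lens markers were 34.0 and 32.2 in KPAW at 1 month, against 25.3 and 31.9 in wild type. Summed pigment epithelium markers were 4.28 and 4.28 in KPAW, against 4.25 and 3.79 in wild type. The sums for rods, Mueller glia and astrocytes, endothelium and red blood cells overlapped between the groups. Summed neutrophil markers were 2.50 and 0.859 in KPAW at 1 month, against 0.599 and 0.455 in wild type. S100a8, S100a9 and Ltf made up most of that sum, Ltf alone 1.21 in KPAW I, and 3 of the 7 genes tested lay higher in both KPAW arrays. The granule genes Mpo, Ngp and Mmp8 had log2 differences of -0.13, -0.29 and -0.20, and Camp was at the lowest listed value in 7 of the 8 arrays. Summed fibroblast and stroma markers were 15.5 and 11.8 in KPAW, against 8.49 and 8.15 in wild type. Summed markers of keratinizing surface epithelium were 24.6 and 13.8 in KPAW, against 5.50 and 5.45 in wild type, while corneal epithelium markers were lower, at 4.17 and 11.1 in KPAW, against 16.2 and 17.7 in wild type. Summed cytokine and interferon response genes were 3.14 and 2.52 in KPAW, against 2.35 and 2.20 in wild type. Within that last list Irf1 and Irf7, which drive interferon responses, overlapped between the groups, and Lcn2, a secreted protein of inflamed epithelium, read 0.423 and 0.0509 in KPAW, against 0.0343 and 0.0307 in wild type. The part of these cells and signals in the complement differences was not tested.

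**Figure D3:**
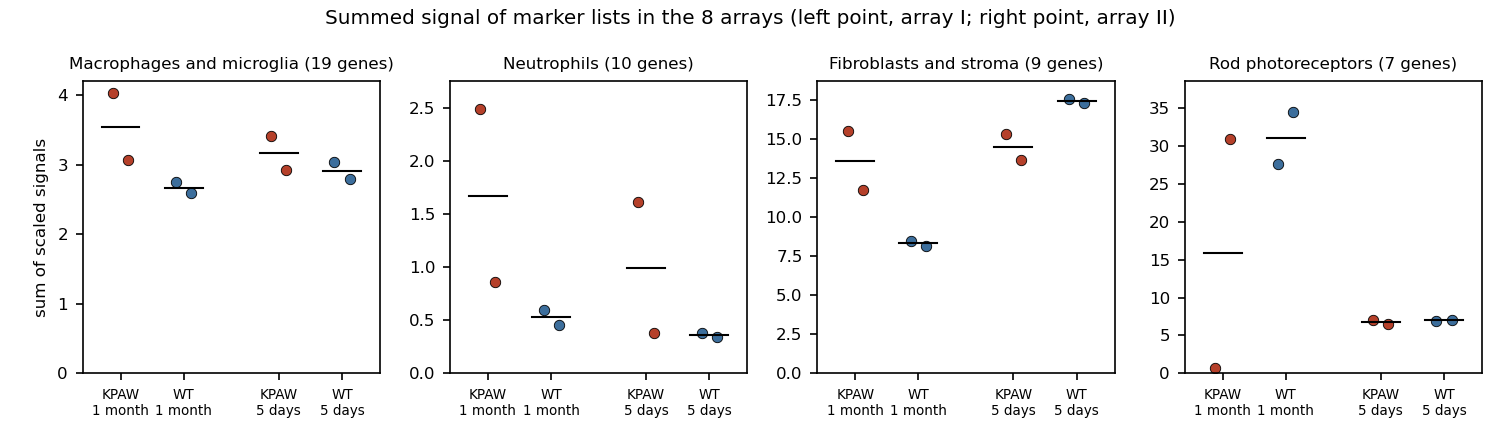
Summed scaled signal (vertical axis, arbitrary units, starting at 0) of 4 marker lists in KPAW and wild-type (WT) eyes; each point is 1 array and each bar the mean of 2. At 1 month the macrophage, neutrophil and fibroblast sums lie higher in both KPAW arrays than in wild type, and the rod sum is near 0 in KPAW I alone.

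At 5 days the same comparison covers the early postnatal eye, when the retina is still forming. Both wild-type arrays and KPAW II carried female markers at this age and KPAW I male ones. Sex was thus not balanced in this comparison, nor in the interaction below that uses it. C1qb was lower in KPAW with both probe sets above the filter, while C1qa, C1qc and C2 overlapped between the groups. No complement probe set passed in limma, and neither did any other (0.0% of probe sets). Of the 6 tested, 2 had an unadjusted p under 0.05, against 2.39% of all, and both were C1qb probe sets. In 3 of the 6 the KPAW arrays lay below the wild-type arrays in scaled signal, against 16.6% of all. In the values as deposited, C1qb (1417063_at) and Serping1 overlapped between the groups, and C1qb (1434366_x_at) did not. The median log2 fold change was -0.06 over the 6 and 0.01 over all probe sets tested.

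With 1434366_x_at, C1qb read 0.112 and 0.110 in KPAW at 5 days, against 0.192 and 0.243 in wild type. The KPAW values were close together and well below both wild-type values (log2 fold change -0.85, SE 0.24, adjusted p = 1.00). With 1417063_at, C1qb read 0.126 and 0.126 in KPAW, against 0.183 and 0.163 in wild type (log2 fold change -0.40, SE 0.17, adjusted p = 1.00). C1qa read 0.232 and 0.143 in KPAW, against 0.216 and 0.159 in wild type, a log2 fold change of -0.02 (SE 0.31). C1qc read 0.177 and 0.188 in KPAW, against 0.183 and 0.183 in wild type, a log2 fold change of 0.00 (SE 0.15). The groups overlapped for both partner chains where C1qb was lower, and that contrast between chains was not itself tested. Summed macrophage and microglia markers were 3.41 and 2.92 in KPAW, against 3.03 and 2.79 in wild type, and overlapped.

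Serping1 read 0.265 and 0.249 in KPAW at 5 days, against 0.281 and 0.277 in wild type, a small difference of -0.11 (log2, SE 0.19, adjusted p = 1.00). C2 read 0.0603 and 0.0935 in KPAW, against 0.0721 and 0.0597 in wild type. For Cfb, both KPAW arrays and wild type II were at the lowest listed value.

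The change in the KPAW difference between the ages was tested as an interaction. No probe set passed (0.0%), complement ones included, while 2 of the 6 complement probe sets had an unadjusted p under 0.05, against 5.88% of all. These were C1qb (1417063_at), at 0.77 on the log2 scale (SE 0.24, adjusted p = 0.809), and Serping1, at 0.62 (SE 0.26, adjusted p = 0.809). Both lay above wild type in both KPAW arrays at 1 month and below it in both at 5 days, in scaled signal. Of all probe sets tested, 3.73% did so. In the values as deposited the groups overlapped for both of these at both ages. C1qa (0.85, SE 0.43), C1qb with 1434366_x_at (0.63, SE 0.33) and C1qc (0.42, SE 0.21) gave positive values that did not pass (adjusted p = 0.809 for each), and C2 gave -0.03 (SE 0.30).

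The arrays at 1 month were next compared with those at 5 days within each kind of eye. In wild type the 5-day arrays carried female markers and the 1-month arrays male ones, so age and sex cannot be told apart there. In KPAW only array II at 5 days carried female markers. In wild type C2 rose and was the one complement probe set of 6 to pass, against 18.1% of all probe sets tested. It read 0.141 and 0.108 at 1 month, against 0.0721 and 0.0597 at 5 days, a mean of 0.124 ± 0.0235 at 1 month and 0.0659 ± 0.00876 at 5 days (SD, n = 2 each). The log2 fold change of C2 was 0.73 (SE 0.21, adjusted p = 0.0487). The call sat at the threshold and was lost with quantile normalization (adjusted p = 0.0594), median scaling (0.0588), no filter (0.0788), a filter above the 50th percentile (0.0528), a replicate block (0.0607) and without either array of any group but KPAW at 5 days.

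The C1q genes lay lower in wild-type eyes at 1 month than at 5 days, without passing. C1qa read 0.131 and 0.124 at 1 month, against 0.216 and 0.159 at 5 days (log2 fold change -0.48, SE 0.31, adjusted p = 0.313). C1qb (1417063_at) read 0.121 and 0.109 at 1 month, against 0.183 and 0.163 at 5 days (-0.51, SE 0.17, adjusted p = 0.0743), and passed in 5 other settings, among them median scaling (adjusted p = 0.0445) and array weights (0.0367). C1qc read 0.136 and 0.132 at 1 month, against 0.183 and 0.183 at 5 days (-0.40, SE 0.15, adjusted p = 0.101). In all 3 the ages did not overlap after scaling. In the values as deposited the ages overlapped in all 3. Across settings other than leaving out arrays, the log2 fold change was -0.56 to -0.030 for C1qa and -0.59 to -0.070 for C1qb (1417063_at). For C1qc it was -0.48 to 0.054. By contrast, 1434366_x_at for C1qb differed by 0.00 (SE 0.24) and overlapped. In scaled signal, 3 of the 6 tested lay lower at 1 month without overlap, against 32.9% of all, and 2 higher, against 32.5%. The faint probe set 1437726_x_at of C1qb, below the filter, was tested only with no filter. It passed there, where 11.5% of all probe sets did.

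In KPAW eyes Serping1 rose and was the one complement probe set of 6 to pass, against 14.3% of all. It read 0.589 and 0.395 at 1 month, against 0.265 and 0.249 at 5 days, a mean of 0.492 ± 0.137 at 1 month and 0.257 ± 0.0117 at 5 days (SD, n = 2 each). The log2 fold change of Serping1 was 0.86 (SE 0.19, adjusted p = 0.0222), and it was 0.58 without KPAW I at 1 month, which still passed (adjusted p = 0.0460). The call was lost without KPAW I at 5 days (adjusted p = 0.0596), without KPAW II at 5 days (0.116), with the values as deposited (0.0743) and with the KPAW arrays alone (0.0944). In wild type Serping1 differed by 0.24 (SE 0.19, adjusted p = 0.406), and the difference between the kinds of eye is the interaction given above, which did not pass.

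C2 in KPAW eyes read 0.133 and 0.139 at 1 month, against 0.0603 and 0.0935 at 5 days. Its log2 fold change of 0.70 (SE 0.21, adjusted p = 0.0639) was close to that in wild type and did not pass. Cfb read 0.0418 and 0.0362 at 1 month, while both arrays at 5 days held the lowest listed value. It was below the filter, and without a filter Cfb passed in KPAW (log2 fold change 0.94, adjusted p = 0.0123), where 8.97% of all probe sets did. For C1qb, 1434366_x_at read 0.137 and 0.241 at 1 month, against 0.112 and 0.110 at 5 days (0.63, SE 0.24, adjusted p = 0.116), and it passed without KPAW I at 1 month (0.99, adjusted p = 0.0165). C1qb (1417063_at) gave 0.26 (SE 0.17), C1qa 0.38 (SE 0.31) and C1qc 0.02 (SE 0.15), none of them passing. In 4 of the 6 tested, both arrays at 1 month lay above both at 5 days in scaled signal, against 25.3% of all. In the values as deposited, C1qb (1417063_at) overlapped between the ages. The 2 age comparisons and the 2 comparisons of KPAW with wild type share arrays, so they are not independent of each other.

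The other complement genes give the setting of these changes. Of a list of 51 symbols, older names included, 34 had a probe set and 18 passed the filter. The terminal components C8a and C8b were at the lowest listed value in 6 and 7 of the 8 arrays, and Hc, C6, C8g and C9 were below the filter as well. In wild type 4 of the 18 rose between 5 days and 1 month and 1 fell, where 18.1% of all probe sets passed. Age and sex cannot be told apart in this comparison either. Clu, whose product clusterin restrains the terminal complex, averaged 3.71 ± 0.281 at 1 month and 1.81 ± 0.0791 at 5 days (SD, n = 2 each; log2 fold change 1.03, SE 0.19, adjusted p = 0.00941). Itgam, the alpha chain of complement receptor 3, averaged 0.112 ± 0.0136 at 1 month and 0.0218 ± 0.00206 at 5 days (1.63, SE 0.21, adjusted p = 0.00262).

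Vtn, which encodes vitronectin, another inhibitor of the terminal complex, averaged 2.02 ± 0.101 at 1 month and 0.0865 ± 0.0202 at 5 days in wild type (SD, n = 2 each; log2 fold change 4.26, SE 0.91, adjusted p = 0.0173). Cd59a, a membrane protein that blocks that complex, averaged 0.468 ± 0.0368 at 1 month and 0.240 ± 0.00388 at 5 days (0.90, SE 0.16, adjusted p = 0.00932). Cd93, a membrane protein of endothelial and myeloid cells once described as a C1q receptor, fell, with 0.0305 ± 0.000525 at 1 month and 0.270 ± 0.0234 at 5 days (-2.50, SE 0.18, adjusted p = 0.000293).

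In KPAW eyes 2 of the 18 rose, Clu (log2 fold change 1.61, SE 0.19, adjusted p = 0.00227) and Itgam (1.45, SE 0.21, adjusted p = 0.00514), and Cd93 fell (-1.81, SE 0.18, adjusted p = 0.00129), where 14.3% of all probe sets passed. Between KPAW and wild type none of the 18 passed at either age. Their median log2 fold change at 1 month was 0.24, against -0.01 over all probe sets, and 7 of the 18 lay higher in both KPAW arrays, against 16.9% of all. Vtn read 0.178 and 2.33 in KPAW at 1 month, against 2.10 and 1.95 in wild type, low in KPAW I like the rod markers. C1s1, a protease partner of C1q, read 0.155 and 0.106 in KPAW at 1 month, against 0.0672 and 0.0587 in wild type (0.83, adjusted p = 0.561).

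**Figure D4:**
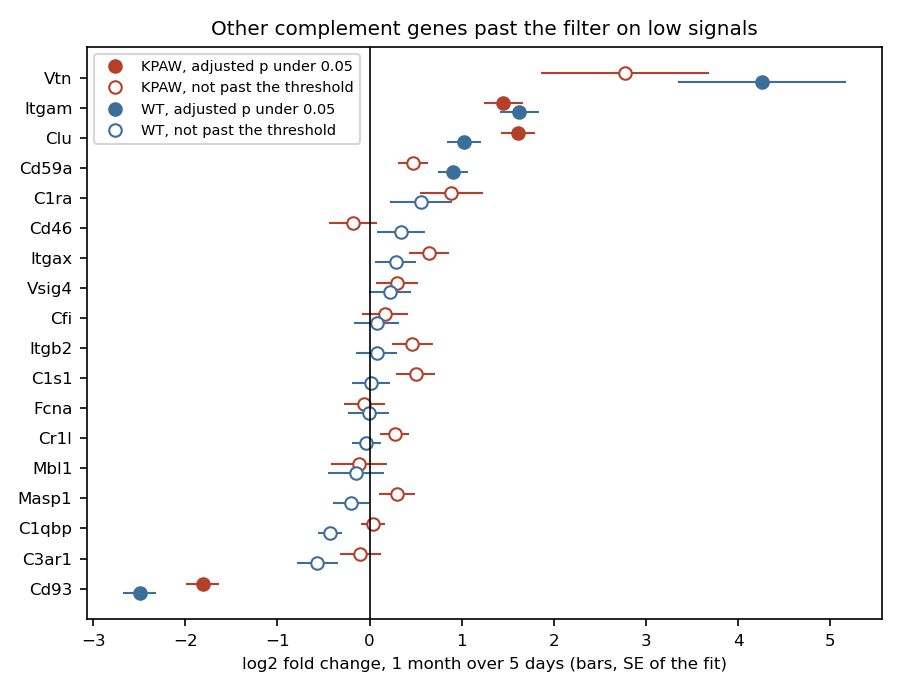
Log2 fold change of 1 month over 5 days (horizontal axis; bars, SE of the fit) for the 18 other complement genes above the filter on low signals, in KPAW and wild-type (WT) eyes; filled points had an adjusted p under 0.05. Itgam and Clu rose and Cd93 fell in both kinds of eye, while Vtn and Cd59a passed in wild type alone, a difference that did not pass the interaction test.

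Genes of like pattern were ranked by the root mean square difference of centred log2 values over the 8 arrays. For C1q, taken as the mean of C1qa, C1qb (1434366_x_at, its brightest probe set) and C1qc, the nearest of 9489 genes were Thop1, Rps3a1, ND5, Anapc2 and Fmo1, at 0.067 to 0.081, where the median gene lay at 0.30. This C1q mean spanned 0.50 on the log2 scale and averages probe sets that disagree at 1 month. With 1417063_at for C1qb, a choice made after seeing the data, the mean spanned 0.83 and the nearest genes were others, Ltbp3, Igfbp5, Tlcd1, Rap2b and Sparc, at 0.052 to 0.091, against a median of 0.35. For Serping1, which spanned 1.18, the nearest were Alcam (0.047), Myh11 (0.080), Rell1 (0.088), Cd47 (0.105) and Adamdec1 (0.105), against a median of 0.44. Alcam encodes a cell adhesion molecule and Myh11 the myosin of smooth muscle. For Cfb, which spanned 1.07, they were Dcn (0.155), Dnase1l1 (0.167), Csad (0.174), Sqor (0.175) and Fmod (0.175), against a median of 0.47. Cfb lay below the filter, with the lowest listed value in 3 arrays. Its signals outside KPAW at 1 month were below the pseudocount, so its span and ranking depend on the pseudocount and the scaling. Dcn and Fmod encode proteoglycans of collagenous stroma. With 8 arrays in 4 groups, likeness of this kind describes these arrays alone.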

How the data were processed

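The authors deposited a table with 1 signal for each probe set in each array, per the file headers; the software behind it was not given in the sources used here. The median of the 64 control probe sets was 1.0 in every array. Signals run from a fixed lowest value of 0.01 to 11.1, and the share at the lowest value was 10.0% to 14.9% per array. They were treated as linear. Total RNA was prepared with Trizol and RNeasy columns, per the labels. Precision is limited by the number of arrays. The 64 controls were dropped from 22690 probe sets; 20380 of the rest carried 1 gene symbol, 691 several and 1555 none in the platform annotation.

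Arrays were brought to a common trimmed mean (2% off each end), since these means differed by a ratio of 1.78. A pseudocount of 0.0211, the 20th percentile, was added before taking log2, and probe sets with a mean signal above the 30th percentile (0.0406) were tested, 15838 in all. A limma model (3.58.1, R 4.3.3) with 1 mean per group (4 in all) and a variance trend used all 8 arrays (4 residual degrees of freedom). The p-values were adjusted by Benjamini-Hochberg within each of 5 contrasts. Fold changes are on the log2(signal + pseudocount) scale, which understates those of faint genes, and ± is the SD of scaled signals. A gene with several probe sets is represented in lists by the one with the highest mean. Tested on simulated data for the 1-month comparison (15838 probe sets), the model recovered 56% of 50 probe sets changed 2-fold and 90% of 50 changed 4-fold, with 12 false calls. The simulated noise was independent and, for each probe set, of equal spread in every array, with no outlying array like KPAW I. More probe sets were changed there than the real comparison called, so these shares need not hold for it. Arrays of equal number deviated together in some pairs of groups and not in others (correlations of -0.02 to 0.31), so the numbers were not taken as pairs.

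All probe sets of the members were named, and of the other complement genes those past the threshold; like-patterned genes were the 5 nearest. C1s1 and the single marker genes given with values were chosen after their values were seen. The members and lists were chosen with earlier results of these data known. Alternatives were other normalizations, pseudocounts, filters and variance models, a replicate block, 1 probe set per gene and leaving out each array. Tables and plots used Python 3.11.15, pandas 2.3.3 and matplotlib 3.10.9.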

Additional observations from a re-analysis of the deposited data

Results flagged for a closer look

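For C1qb (1417063_at) and Serping1, both KPAW arrays lay above wild type at 1 month and both below it at 5 days, after scaling. In the values as deposited the groups overlapped for both probe sets at both ages. For Serping1 the 5-day difference was small, at -0.11 on the log2 scale (SE 0.19). With the values as deposited it was 0.077, so its direction at 5 days depends on the scaling. The change in the KPAW difference was 0.77 for C1qb and 0.62 for Serping1 on the log2 scale. Neither passed the interaction test of limma (adjusted p = 0.809 for each). In settings other than leaving out arrays this change was 0.35 to 0.84 for C1qb and 0.17 to 0.70 for Serping1. The other C1qb probe set above the filter, 1434366_x_at, overlapped with wild type at 1 month, and its change was 0.63 (SE 0.33, adjusted p = 0.809).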

How the results depend on the processing

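Few arrays and faint signals limit these results, and the cause of each shift below was not tested unless fewer arrays or probe sets are named. Counts of complement probe sets called, in KPAW against wild type at 1 month, were 0 in the settings other than leaving out arrays and 0 to 1 when an array was left out. Where an array is left out, the lone array of its group is assumed to vary like the others. At 5 days and for the difference between the ages they were 0 throughout. For age in wild type the count was 1, and it was 0 with quantile normalization, a filter above the 50th percentile and a replicate block, 2 with array weights and the contrast's groups alone, and 0 to 1 without single arrays; with median scaling the 1 called was C1qb (1417063_at) and with no filter C1qb (1437726_x_at), in place of C2. For age in KPAW it was 1, and 0 as deposited and with the groups alone, 2 with no filter, and 0 to 2 without single arrays. The replicate block (paired by number) changed no other complement call; over all probe sets it gave 13 calls at 1 month.

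Over all probe sets, the 4 calls at 1 month became 99 as deposited, 2 with either a filter above the 50th percentile or a smaller pseudocount (5th percentile), 1 with array weights, 19 with the groups alone, and 0 to 562 without single arrays (562 without KPAW II at 1 month). At 5 days there were 0, and 0 to 27 without single arrays (27 without KPAW II at 5 days). For age in wild type 2860 became 1863 with 1 probe set per gene and 848 to 3690 without single arrays. For age in KPAW 2259 became 1343 as deposited, 604 with the groups alone, 1495 with 1 probe set per gene and 733 to 2173 without single arrays. For the difference between the ages 0 became 36 as deposited and 0 to 306 without single arrays.

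The values as deposited already shared a common median of the control probe sets across arrays. With them, the median of all probe sets moved to -0.26 at 1 month and 0.18 at 5 days. It moved to 0.44 for age in wild type and -0.45 for the difference between the ages. Of the probe sets tested, values changed sign there for C2 at 1 month (-0.12), for C1qa (0.15), C1qc (0.18) and Serping1 (0.077) at 5 days, for C1qb 1434366_x_at (0.47) and C1qc (0.054) for age in wild type, and for C1qc in the difference between the ages (-0.0054). C2 in that difference turned to 0.030 with quantile normalization and 0.036 with median scaling. None of these had passed. Without single arrays, tested values that turned sign were those of C2 at 1 month (-0.043 to 0.29) and 5 days (-0.093 to 0.40), C1qb 1434366_x_at at 1 month (-0.58 to 0.15) and for age in wild type (-0.16 to 0.15), C1qa (-0.33 to 0.29) and C1qc (-0.040 to 0.038) at 5 days, C1qa (-0.034 to 0.79) and C1qc (-0.12 to 0.16) for age in KPAW, and C2 in the difference between the ages (-0.28 to 0.22). Among the probe sets below the filter, the ranges without single arrays also crossed 0 for Cfb for age in wild type (-0.27 to 0.12). They did so for C1qb 1437726_x_at at 5 days (-0.074 to 0.12) and in the difference between the ages (-0.025 to 0.17). With the values as deposited, Cfb for age in wild type was 0.11 and C1qb 1437726_x_at in that difference was -0.10. With quantile normalization C1qb 1437726_x_at at 5 days was -0.014.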
